A study of Mus musculus with 8 samples.

Results

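mmu-miR-451a and the 2 arms of miR-486a, mmu-miR-486a-5p and mmu-miR-486a-3p, are the 3 miRNAs described here, out of 1881 mouse miRNAs on the array. They were chosen by name as miRNAs known from red blood cells. The question asked of them was whether miR-486a, which is also made in muscle, varied over these skin samples with miR-451a or with miR-1a-3p, a striated muscle miRNA that served as an outside reference. All animals were male mice with both Ncstn alleles floxed and a Krt14-CreER transgene (Ncstn flx/flx; Krt14 CreER+/-). Ncstn encodes nicastrin, a subunit of γ-secretase, and the keratin 14 promoter places the tamoxifen-activated Cre recombinase in basal keratinocytes, so blood and muscle cells are not the cells in which deletion was driven. The NcstnΔKC group (4 arrays) received tamoxifen by oral gavage from 8 weeks of age, 20 mg/kg/day on 5 days in succession and then at intervals of 10 days. The normal group (4 arrays) had the same genotype, Cre included, and received corn oil. An effect of tamoxifen itself therefore cannot be told apart from that of the deletion. Skin was taken at 16 weeks from both groups, and the protocol calls the excised tissue lesions. The labels number the arrays 1 to 4 in each group and do not say whether each came from a separate mouse or a pool, so the tests below measure the spread between these samples. A miRNA array holds no probe for Ncstn, so the deletion itself could not be checked.

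miR-451a is transcribed together with miR-144 in erythroid cells. Its hairpin is too short for Dicer and is cut by Argonaute 2, and the mature miRNA accumulates in red blood cells. miR-486 lies within Ank1, the gene of ankyrin-1, a protein of the red cell membrane skeleton of which shorter forms are made in striated muscle, and miR-486 is known both from erythroid cells and from muscle. miR-1a, miR-133a and miR-133b are made in striated muscle and miR-206 in skeletal muscle. Mouse skin has a thin sheet of skeletal muscle, the panniculus carnosus, below the dermis, and blood is present in any skin sample.

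The sequences below show what the arrays could tell apart. RefSeq (GRCm38.p6) places the Mir451a hairpin on the plus strand at chr11:78073170-78073241, where Mir451b is annotated at the same interval on the opposite strand, and mature miR-144-3p ends 103 bases before the hairpin. The mature sequences of this locus are given 5′ to 3′ with the seed (bases 2 to 8) in capitals, and no seed is shared between them.
miR-451a: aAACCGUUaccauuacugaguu
miR-144-3p: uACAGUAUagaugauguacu
miR-144-5p: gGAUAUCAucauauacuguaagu
miR-451b: uGGGAGCAgcaagagaaccgu
In the Mir451a hairpin, the 22 bases of the mature miRNA, in capitals, run from position 17 to position 38 of 72, across the loop.
Mir451a hairpin: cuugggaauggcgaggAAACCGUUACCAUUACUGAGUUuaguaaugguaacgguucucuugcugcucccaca

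Each miRNA was read by probes complementary to it. The longer miR-451a probe (mm9, chr11:77886689-77886709, per the deposited files) pairs with the whole mature miRNA. Capitals mark the base by which it exceeds the shorter probe.
miR-451a, shorter probe: aactcagtaatggtaacggtt
miR-451a, longer probe: aactcagtaatggtaacggttT
The miR-486a-5p probes are short, 13 and 14 bases (mm9, chr8:24253067-24253080 for the longer), and the capital again marks the added base.
miR-486a-5p, shorter probe: ctcggggcagctc
miR-486a-5p, longer probe: ctcggggcagctcA
Both of these probes carry miR-3107-5p as a second name in the files. In RefSeq the Mir3107 gene lies within the interval of Mir486, and Mir486 lies within the interval of Ank1. The values of miR-486a-5p are therefore those of any miRNA that holds this stretch, and a product of Mir3107 with the same bases cannot be told apart from it.
The miR-486a-3p probes (mm9, chr8:24253105-24253121 for the longer) share 15 bases, in capitals, with both probes of miR-486b-3p.
miR-486a-3p, shorter probe: aTCCTGTACTGAGCTG
miR-486a-3p, longer probe: aTCCTGTACTGAGCTGc
miR-486b-3p, shorter probe: TCCTGTACTGAGCTG
miR-486b-3p, longer probe: TCCTGTACTGAGCTGc

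Levels are processed intensities divided by each array's 75th percentile over 301 probes detected on all 8 arrays, summed over the probes of a miRNA and given as log2. A value under a floor of -4.97 was set to it, and values at the floor have no order. Detection ranged from 235 to 273 miRNAs on the normal arrays and from 198 to 238 on the NcstnΔKC arrays. The 75th percentile that scaled them was 1259 ± 44.6 and 1053 ± 98.3 intensity units respectively (SD, n = 4 each). All 8 arrays lay on 1 slide and were scanned once, with the normal arrays in 1 row and the NcstnΔKC arrays in the other; an effect of the row cannot be told apart from that of the group. All 8 listed keratinocyte and epithelial miRNAs were detected on at least 1 array, and 8 of 8 entered the test. Of 222 miRNAs tested with limma, 42.8% were called at an adjusted p under 0.05: 62 were lower in NcstnΔKC skin (27.9% called lower) and 33 were higher (14.9% called higher), with a median difference of -0.23 over all tested miRNAs.

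mmu-miR-451a was measured in every sample and did not pass the test between the groups. Its level was 0.82, 0.68, -0.27 and -1.19 on normal arrays 1 to 4. On NcstnΔKC arrays 1 to 4 it was 1.43, 0.49, 0.23 and 0.01. The groups overlapped: the highest array was NcstnΔKC 1 and the lowest were normal 4 and normal 3. Neither tested member was among the 36.9% of tested miRNAs whose groups did not overlap. The level spanned 4.00-fold within the normal group, 2.67-fold within the NcstnΔKC group and 6.13-fold over all 8 arrays. The group means were 0.01 ± 0.93 and 0.54 ± 0.62 (SD, n = 4 each), a difference of 0.53 ± 0.49 (SE, NcstnΔKC minus normal; limma adjusted p = 0.392). The difference read by the longer probe was 0.52 and that by the shorter 0.55, and every array had both probes detected. Within-array spot variation of these probes was 1.37% to 7.27% (coefficient of variation), small beside the differences between samples of a group. The difference kept its sign without any 1 of the arrays, and ran from 0.13 (without normal 4) to 0.80 (without normal 1). Scaled over all probes it was 1.40 (limma adjusted p = 0.223).

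mmu-miR-486a-5p was close to the limit of detection, was detected on 4 of 4 normal and 1 of 4 NcstnΔKC arrays, and was called lower in NcstnΔKC skin. Its level was -3.87, -2.70, -1.82 and -2.05 on normal arrays 1 to 4, detected on each. On NcstnΔKC 1 it was detected at -3.24. On NcstnΔKC 2 and 3 it was set to the floor of -4.97, and on NcstnΔKC 4 it was -4.90, with no detection on these 3 arrays. The groups overlapped in 1 array, since NcstnΔKC 1 lay above normal 1. The highest array, normal 3, was at least 8.90-fold above those at the floor. The difference was -1.91 ± 0.54 (SE, n = 4 each; limma adjusted p = 0.0229), from means of -2.61 ± 0.92 and -4.52 ± 0.85 (SD), with the floor entered as the value on 2 arrays. It entered the test only through its detection in the normal group, and the floor sets the size of the difference, which was -1.18 with a floor 2 times as high (adjusted p = 0.0562). With 27.9% of all tested miRNAs called lower, a lower call was common here, and the size of this one ranked 3 among the falls. The call was lost (limma adjusted p from 0.0539 to 0.0661) when normal 3, normal 4, NcstnΔKC 2, NcstnΔKC 3 or NcstnΔKC 4 was left out, and was kept without each of the other 3 arrays. Over all alternatives it was lost in 15 of 22, among them testing with no filter on detection (adjusted p = 0.374), the scaling over all probes (-1.10, adjusted p = 0.367), cyclic loess (-0.78, adjusted p = 0.149) and normexp background correction (-0.56, adjusted p = 0.0800). The last 3 move the value by over 1.5 times.

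**Figure D1:**
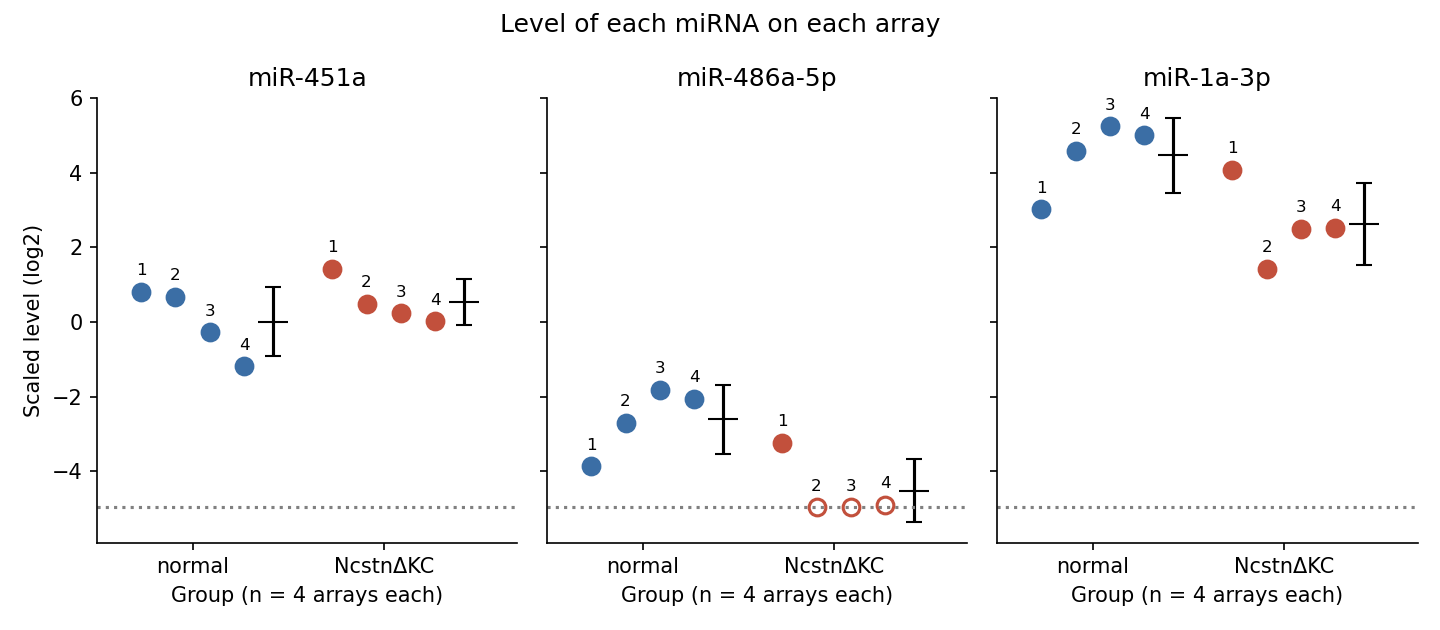
Scaled level (log2, vertical axis) of miR-451a, miR-486a-5p and miR-1a-3p on each of the 8 arrays, by group; numbers are replicate numbers, hollow points are arrays without detection, the dotted line is the floor of -4.97, and black bars are means ± SD (n = 4). The NcstnΔKC arrays 2 to 4 lie at or near the floor for miR-486a-5p, while all 8 arrays lie between -1.19 and 1.43 for miR-451a.

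The intensities of the longer miR-486a-5p probe show the same order before any scaling. They were 59.3, 121, 225 and 199.7 units on normal arrays 1 to 4. On the NcstnΔKC arrays they were 82.3, 8.58, 20.9 and 27.3 units. Every kept spot of this probe was well above background on the first 5 of these arrays and none was on NcstnΔKC 2 to 4. The shorter probe was detected on 3 arrays, normal 2 to 4. The longer probe gave a difference of -1.45 and the shorter -0.95, both limited by the floor.

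mmu-miR-486a-3p was not detected on any array by either probe. The mean intensities of its probes ranged from -18.6 to 5.72 units after background subtraction, and all 8 levels were set to the floor. It did not enter the test, and no difference between the groups is given for it. miR-486b-3p, whose probes share the 15-base stretch printed above, was not detected either.

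The other red blood cell miRNAs gave no second measure of blood. The list held 8 names, of which 7 were on the array, and 5 of these were detected nowhere: miR-451b, miR-144-3p, miR-144-5p, miR-486a-3p and miR-486b-3p. miR-144, the partner of miR-451a on the same transcript, was thus below the floor in samples in which miR-451a was well measured. Of the 2 tested members, miR-486a-5p was lower (-1.91) and miR-451a did not pass (0.53), beside 42.8% called of all tested miRNAs. Their median of -0.69 lies between these opposite values and describes neither. In summed level the list ran from -0.25 to 0.99 on the normal arrays and from 0.27 to 1.57 on the NcstnΔKC arrays (log2). This sum enters each of the 5 undetected members at the floor, and its largest part is miR-451a.

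Of the striated muscle miRNAs, miR-1a-3p was called lower in NcstnΔKC skin and the other 4 that were tested did not pass. miR-1a-3p was 3.02, 4.59, 5.25 and 5.01 on normal arrays 1 to 4. On the NcstnΔKC arrays it was 4.09, 1.43, 2.50 and 2.53. It was highest on normal 3 and normal 4 and lowest on NcstnΔKC 2, and NcstnΔKC 1 lay above normal 1, as for miR-486a-5p. miR-1a-3p fell by 1.83 ± 0.63 (SE; limma adjusted p = 0.0451), a call that was lost when any of normal 2, normal 3, normal 4, NcstnΔKC 2, NcstnΔKC 3 or NcstnΔKC 4 was left out (limma adjusted p up to 0.112).

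Of 18 listed striated muscle miRNAs, 5 were detected and tested, 1 was lower and the other 4 did not pass the test, with a median difference of -1.73, beside 27.9% called lower of all tested miRNAs. miR-133a-3p differed by -1.73 (limma adjusted p = 0.0518), miR-133b-3p by -1.69 (adjusted p = 0.0557) and miR-133a-5p by -1.84 (adjusted p = 0.0575). miR-206-3p differed by -1.03 (adjusted p = 0.283). The heart and slow-muscle miRNAs miR-208a, miR-208b and miR-499 were detected on no array. The summed level of the muscle list ran from 4.17 to 6.41 on the normal arrays and from 2.79 to 5.29 on the NcstnΔKC arrays (log2). The part of muscle in the difference of miR-486a-5p was not tested. In tissue RNA, fewer cells of a type and less of the miRNA per cell cannot be told apart.

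Markers of other cells did not share 1 direction. Of 3 tested white blood cell miRNAs, 1 was higher (14.9% of all tested miRNAs were) and 2 did not pass, and the summed level of the list ran from 0.74 to 1.21 in normal and from 1.37 to 3.04 in NcstnΔKC skin. miR-142a-3p, a miRNA of blood-forming cells, rose by 1.52 (limma adjusted p = 0.00792), and miR-223-3p, a miRNA of neutrophils and macrophages, differed by 1.15 (adjusted p = 0.0644). For miR-126a-3p, an endothelial miRNA, the difference was 0.15 (adjusted p = 0.392). Of 8 keratinocyte and epithelial miRNAs, 5 were lower (27.9% of all tested miRNAs were), among them miR-203-3p, and 3 did not pass, among them miR-205-5p. The summed level of that list ran from 4.51 to 4.79 and from 4.52 to 4.93.

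A ratio of 2 miRNAs within an array cancels a scaling factor of that array, except where a value is set to the floor, and shows unequal change. The log2 ratio of miR-486a-5p to miR-451a was -4.69, -3.38, -1.55 and -0.87 on normal arrays 1 to 4. On NcstnΔKC arrays 1 to 4 it was -4.68, at most -5.47, at most -5.20 and -4.91, where the bounds are arrays at the floor and array 4 is a signal not above background. Over the 5 arrays with detection of miR-486a-5p this ratio spanned 14.1-fold. It differed between the groups by -2.44 (means of -2.62 ± 1.74 and -5.06 ± 0.34, SD, n = 4; exact two-sided permutation p = 0.0571, adjusted over 3 ratios p = 0.171), where 0.0286 is the smallest p that 4 arrays against 4 allow. The bounds were entered as values, so the floor in part sets the NcstnΔKC mean and SD. With a floor 2 times as high the difference was -1.71. The difference of this ratio passed the threshold in 1 of 18 alternatives, without normal 1 (-3.13, exact permutation adjusted p = 0.0429). Without any other 1 array the exact permutation adjusted p was 0.129 to 0.171. After adjustment over 3 ratios, 1 ratio alone at the smallest p cannot pass. Pairing the arrays by replicate number, 1 of the 18 alternatives, allows no sign-flip permutation p under 0.125 and could not pass for any ratio.

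The ratio of miR-486a-5p to miR-1a-3p was -6.90, -7.28, -7.07 and -7.06 on the normal arrays. On the NcstnΔKC arrays it was -7.33, at most -6.40, at most -7.47 and, not above background, -7.42. Over the 5 arrays with detection it spanned 1.35-fold, while miR-486a-5p itself spanned 4.15-fold and miR-1a-3p 4.66-fold; on the other 3 arrays the ratio is not measured. The groups differed by -0.08 (means of -7.08 ± 0.16 and -7.16 ± 0.51, SD, n = 4; exact two-sided permutation p = 0.857, adjusted p = 0.857), with the bounds entered as values; this p does not show that the ratio was equal in the groups. This near-zero difference changes sign with the processing and ran from -0.90 to 1.26, none past the threshold. The ratio of miR-451a to miR-1a-3p, measured on all 8 arrays, spanned 38.3-fold, and 15.9-fold over the 5 arrays with detection of miR-486a-5p. It differed by 2.36 (-4.46 ± 1.78 and -2.09 ± 0.79, exact permutation p = 0.114, adjusted p = 0.171). This difference passed the threshold in 1 of 18 alternatives, without normal 1 (3.11, exact permutation adjusted p = 0.0429). Without any other 1 array the exact permutation adjusted p was 0.171 to 0.214.

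**Figure D2:**
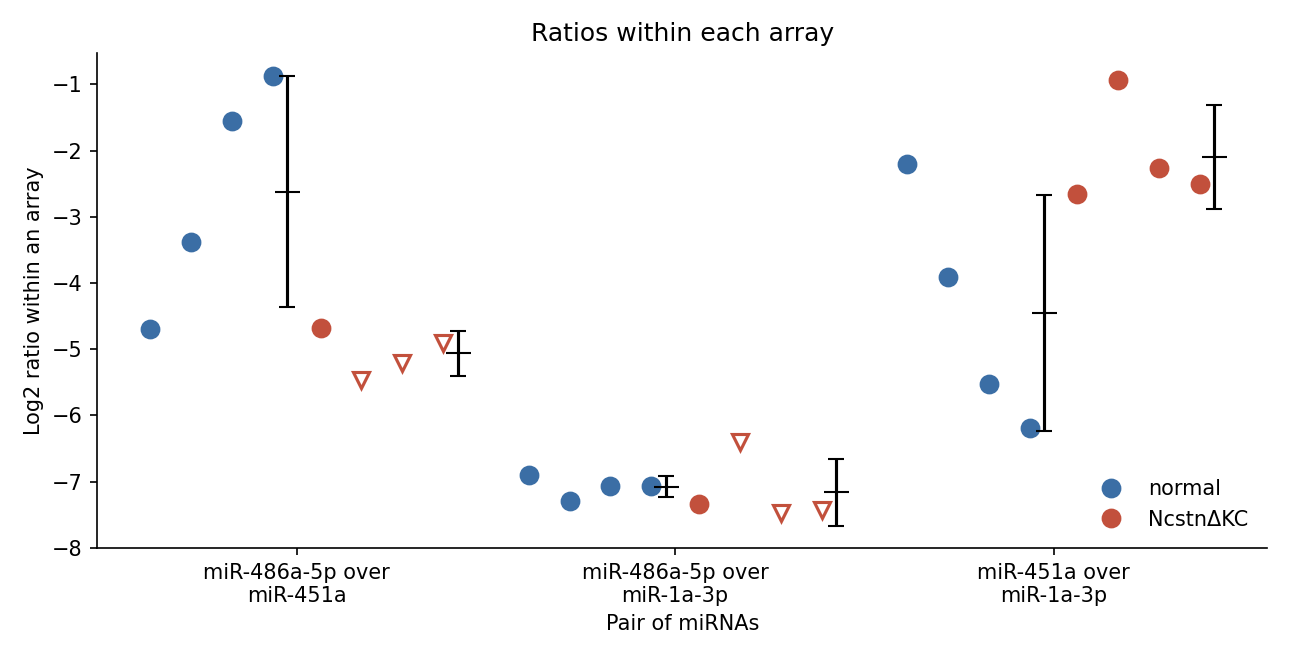
Log2 ratio within each array (vertical axis) for 3 pairs of miRNAs, 4 normal arrays in blue and 4 NcstnΔKC arrays in red; hollow triangles are arrays without detection of miR-486a-5p, and black bars are means ± SD. Among the filled points, the arrays span 1.35-fold for miR-486a-5p over miR-1a-3p and 14.1-fold for miR-486a-5p over miR-451a.

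Over the 8 arrays, miR-486a-5p varied with miR-1a-3p and showed no such relation to miR-451a. Its Pearson r with miR-1a-3p was 0.967 (exact permutation p = 0.000347, adjusted over 3 pairs p = 0.00104), and Spearman's rho was 0.994 (exact permutation p = 9.92e-05, the smallest these tied ranks allow). With miR-451a r was -0.346 (exact permutation p = 0.413, adjusted p = 0.447) and rho was -0.299 (exact permutation p = 0.468). For miR-451a with miR-1a-3p r was -0.321 (exact permutation p = 0.447, adjusted p = 0.447) and rho was -0.310 (exact permutation p = 0.462).

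The relation to miR-1a-3p did not rest on the difference between the group means alone. In NcstnΔKC skin, however, miR-486a-5p was detected only on NcstnΔKC 1, so its deviations there mainly set that array apart. After each group's mean was subtracted, r was 0.938 (permutation p = 0.000446, adjusted p = 0.00134) for miR-486a-5p with miR-1a-3p. With miR-451a it was -0.111 (permutation p = 0.787, adjusted p = 0.801). These permutations moved deviations between the groups, which subtraction of group means does not strictly allow. Their p-values are therefore approximate and may be too small. Without normal 3 and NcstnΔKC 2, the arrays farthest from the median of miR-1a-3p, r was 0.984 over 6 arrays. Without normal 4 and NcstnΔKC 1, the farthest for miR-451a, it was -0.202. On the linear scale without a floor, which was added after the data were seen, miR-486a-5p and miR-1a-3p had the same order over all 8 arrays (rho = 1) and r was 0.994, against -0.374 with miR-451a. The 3 arrays without detection of miR-486a-5p hold signals within background. On the 5 arrays with detection the order of miR-486a-5p was that of miR-1a-3p and not that of miR-451a; no correlation is given for fewer than 6 arrays.

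**Figure D3:**
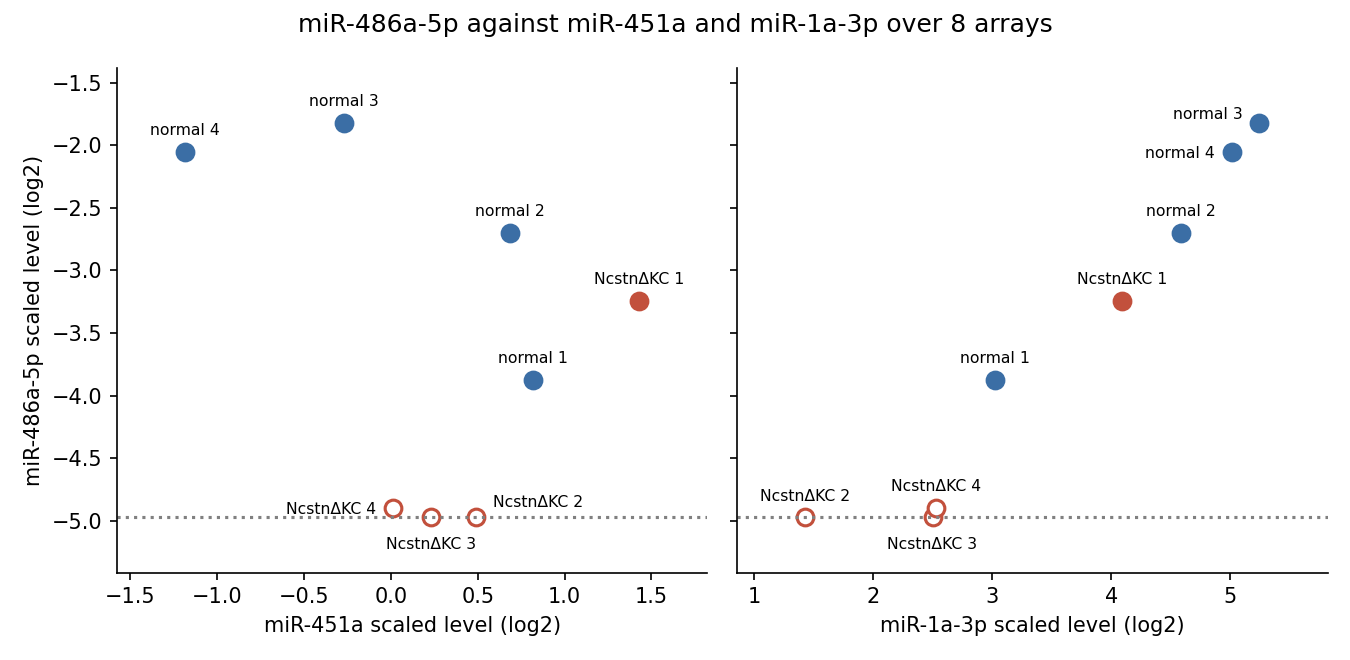
Scaled level (log2) of miR-486a-5p on the vertical axis against that of miR-451a (left) and miR-1a-3p (right), 1 point per array, normal in blue and NcstnΔKC in red; hollow points are arrays without detection of miR-486a-5p and the dotted line is its floor. The points rise together on the right (r = 0.967), except that NcstnΔKC 2 to 4 lie flat at or near the floor. They follow no line on the left (r = -0.346).

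The other detected muscle miRNAs had high r with miR-486a-5p too. The r of miR-486a-5p over 8 arrays, given here as a description, was 0.966 with miR-133a-3p, 0.967 with miR-133b-3p, 0.939 with miR-133a-5p and 0.847 with miR-206-3p. miR-451a had r from -0.490 to -0.302 with the same 4 miRNAs. miR-133a-3p and miR-133a-5p are arms of 1 miRNA, so these are not 4 independent values. Some miRNAs outside the muscle list had r with miR-486a-5p as high, among them miR-30c-5p (0.960) and miR-29c-3p (0.957). The endothelial miR-126a-3p had r = 0.0379 with miR-486a-5p in levels and 0.857 after subtraction of group means, so within the groups it varied with miR-486a-5p too, without a difference between the groups that passed the test. The r of the 3 tested white blood cell miRNAs with miR-486a-5p lay between -0.678 and -0.395, and after subtraction of group means between -0.324 and 0.301. The 8 keratinocyte and epithelial miRNAs ran from -0.800 (miR-141-3p) to 0.793 (miR-203-5p) in levels and from -0.541 to 0.393 after subtraction of group means.

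**Figure D4:**
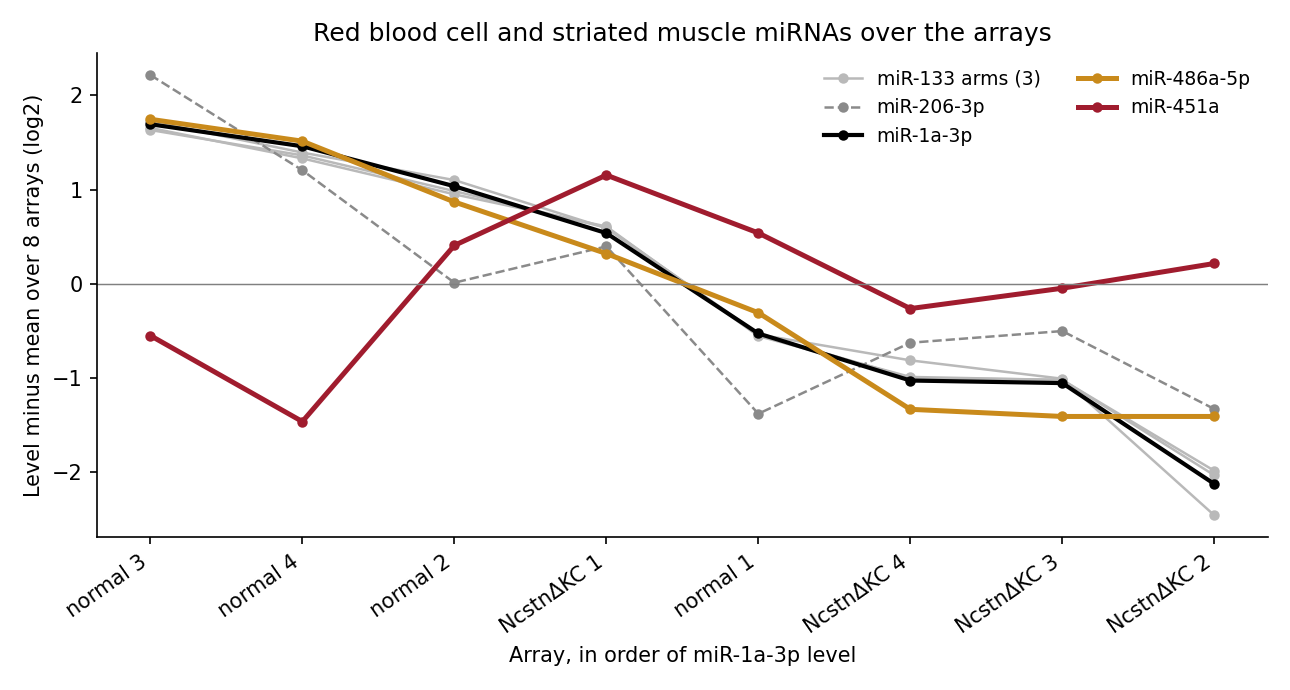
Level minus its mean over the 8 arrays (log2, vertical axis) of miR-451a, miR-486a-5p and 5 striated muscle miRNAs, with the arrays ordered along the horizontal axis by miR-1a-3p. miR-486a-5p falls with miR-1a-3p from normal 3 to NcstnΔKC 2 and flattens at its floor, whereas miR-451a is lowest on normal 4 and highest on NcstnΔKC 1.

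High correlations were common in these 8 arrays, and those of miR-486a-5p are to be read against them. Of the 221 other tested miRNAs, 21 had r above 0.9 with miR-486a-5p and 90 had r under 0, with a median of 0.264. miR-1a-3p ranked 6th and miR-451a 153rd. The 5 miRNAs most like miR-486a-5p by Pearson r over the 8 arrays were miR-30a-3p (0.986), miR-669p-3p (0.985), miR-466q (0.983), miR-30a-5p (0.973) and miR-128-3p (0.972). After subtraction of group means they were miR-30a-3p (0.981), miR-669p-3p (0.964), miR-466q (0.963), miR-378d (0.950) and miR-30a-5p (0.948), with miR-1a-3p ranked 10th and miR-451a 137th. Like miR-486a-5p, miR-30a-3p, miR-669p-3p, miR-466q and miR-128-3p were each detected on 5 arrays, whereas miR-30a-5p was detected on all 8. miR-30a-3p and miR-30a-5p are the arms of 1 hairpin and are not independent of each other.

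**Figure D5:**
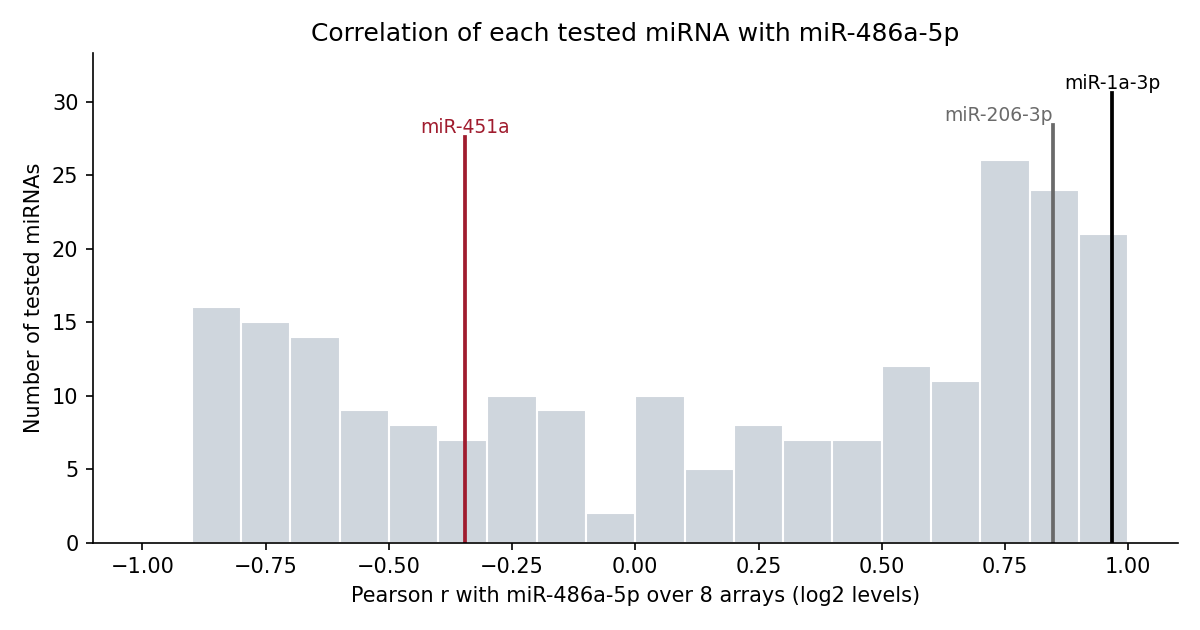
Number of tested miRNAs (vertical axis) by Pearson r with miR-486a-5p over the 8 arrays (horizontal axis, 221 miRNAs, log2 levels); vertical lines mark miR-451a, miR-206-3p and miR-1a-3p. miR-1a-3p (0.967) stands in the top bar with 21 miRNAs, miR-206-3p (0.847) below it, and miR-451a (-0.346) among the negative values.

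No miRNA followed miR-451a as closely. The 5 most like it were miR-5126 (0.784), miR-1839-3p (0.753), miR-3082-5p (0.703), miR-3102-5p (0.701) and miR-5100 (0.696), from a median of -0.188. After subtraction of group means they were miR-497a-5p (0.886), miR-3472 (0.876), miR-1839-3p (0.841), miR-195a-5p (0.795) and miR-5126 (0.782). miR-1839-3p and miR-5126 stood in both groups of 5. miR-497a-5p and miR-195a-5p, which are made from 1 cluster, were lower in NcstnΔKC skin by 1.04 and 1.21 (limma adjusted p = 0.00466 and 0.00238), while miR-451a was not called. miR-3472 was also lower (-1.04, limma adjusted p = 0.0399). By contrast, miR-1839-3p (0.65, limma adjusted p = 0.0291) and miR-3082-5p (0.71, limma adjusted p = 0.0414) were higher.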

How the data were processed

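Mature miRNAs were measured on 1-colour Agilent arrays (Cy3) in 4 normal and 4 NcstnΔKC skin samples, grouped by title. Per the labels' protocols, total RNA was extracted with a mirVana kit. Per the file headers, Agilent Feature Extraction 10.7.1.1 gave background-subtracted processed intensity per spot (positions in mm9) with no scaling between arrays; the authors' deposited series matrix holds log2 values whose centring and scaling are not given in the sources used here (array medians 3.24 to 3.25).

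Outlier and control spots were left out and no spot was saturated. Spots were averaged per probe and levels computed as the report states; detection of a probe required 50% or more of its spots to be flagged well above background. A miRNA was tested if detected on each array of 1 group or the other (222 miRNAs), with limma 3.58.1 in R 4.3.3 on group alone, with Benjamini-Hochberg adjustment over all 222 and a threshold of 0.05. The script was tested on simulated data. Ratios and correlations were tested by exact two-sided permutation, adjusted over 3. For deviations from group means this permutation is approximate. The number of arrays limits the precision. Within groups, 12 pairs of arrays shared 0 identical probe signals.

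Mature and hairpin sequences come from RefSeq, where 1 of the 3 miRNAs matched, and probe sequences from the deposited files. Alternatives were other scalings, background correction, floor, filters, probe summary, a replicate block and leaving out each array. The named miRNAs were the 3 chosen ones, miR-1a-3p, detected members of the blood and muscle lists, up to 2 of each other list and the 5 most correlated with each. The miRNAs and lists were chosen with earlier results of these data known.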

Additional observations from a re-analysis of the deposited data

Results flagged for a closer look

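In 2 of 12 groups of 4 values examined, 1 array stood apart by Dixon's criterion at the 95% level (the gap to the next value over the range), where chance gives about 1 in 20. For miR-486a-5p in NcstnΔKC skin, NcstnΔKC 1 stood at -3.24 on the log2 scale, above the next array at -4.90. NcstnΔKC 1 was the only array of its group with detection, and the other 3 lay at or next to the floor, which narrows their spread. For the log2 ratio of miR-486a-5p to miR-1a-3p in NcstnΔKC skin, NcstnΔKC 2 stood at -6.40, above the next array at -7.33. That ratio is an upper bound, since miR-486a-5p was at the floor there. Without NcstnΔKC 1 the difference in miR-486a-5p was -2.34 (limma adjusted p = 0.00647). Without NcstnΔKC 2 the ratio differed by -0.33 between the groups (exact permutation adjusted p = 0.129).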

How the results depend on the processing

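Under every alternative run, miR-486a-5p was lower and miR-451a higher in NcstnΔKC skin, the latter never past the threshold (23 of 23), and the correlation of miR-486a-5p with miR-1a-3p passed in 20 of 20 (0.832 to 0.994). The median of all tested miRNAs, -0.23, became 0.64 with the percentile over all probes, -0.49 with no scaling, -0.07 with quantile and with normexp, -0.11 with cyclic loess and -0.14 in the series matrix. miR-486a-5p lost its call in 15 of 22 alternatives (adjusted p over all of them 0.000161 to 0.374) and miR-1a-3p in 17 of 23 (0.000691 to 0.439). The cause was not tested.

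For miR-486a-5p and miR-1a-3p respectively, differences no longer past the threshold were -1.10 and -0.96 with the percentile over all probes. They were -1.74 and -1.60 with quantile normalization, -0.78 and -1.75 with cyclic loess, -0.56 and -1.81 with normexp, and -1.81 and -1.80 in the series matrix. With no filter they were -1.91 and -1.83 (limma adjusted p = 0.374 for both). More miRNAs were tested there, and the unadjusted limma p also rose, from 0.00692 to 0.0218 and from 0.0191 to 0.0472. On the linear scale without a floor, added after the data were seen, the differences were -0.145 and -17.8 scaled units (exact permutation adjusted p = 0.0857 for both). For miR-486a-5p alone they were -1.17 with the brightest probe and -1.18 with a floor 2 times as high; for miR-1a-3p alone -1.93 with the scanner software's totals, -1.83 (adjusted p = 0.0519) over miRNAs detected on all 8 arrays, where miR-486a-5p is not tested, and -1.83 (adjusted p = 0.0506) with a trended robust eBayes. Leaving out each array gave -2.34 to -1.65 for miR-486a-5p and -2.32 to -1.43 for miR-1a-3p.

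The 95 calls became 12 (12 higher, 0 lower) with the percentile over all probes, 60 with the software's totals, 61 over miRNAs detected on all 8 arrays, 19 with no filter and 149 with array weights, and 59 to 94 without 1 array. The red blood cell list had 0 calls in place of 1 with the percentile over all probes, quantile, cyclic loess, normexp, brightest probe, series matrix, doubled floor, both filters and the replicate block, and 0 to 1 without 1 array. The muscle list had 0 calls with the percentile over all probes, quantile, cyclic loess, normexp, software totals, series matrix, both filters, the replicate block and the trended eBayes, 4 with no scaling, 5 with array weights and 0 to 4 without 1 array.

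The near-zero ratio difference of miR-486a-5p to miR-1a-3p (-0.08) became 0.97 with cyclic loess, 0.0089 with no scaling, 1.26 with normexp, 0.65 with the brightest probe, 0.65 with the doubled floor and -0.33 to 0.0244 without 1 array (0.0244 without NcstnΔKC 3 and 0.0083 without NcstnΔKC 4). The ratio differences of miR-486a-5p to miR-451a and of miR-451a to miR-1a-3p were -3.13 to -1.86 and 1.78 to 3.11 without 1 array. The r of miR-451a was 0.0281 with miR-1a-3p under the percentile over all probes, and with miR-486a-5p -0.505 to 0.0066 without 1 array.

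Replicate numbers did not pair the arrays: same-numbered deviations correlated at -0.439, 0.201, -0.257 and -0.234, and 0 of 8 arrays correlated best with their own number. With the replicate block the differences were -1.91 for miR-486a-5p (limma adjusted p = 0.0928) and -1.83 for miR-1a-3p (adjusted p = 0.132), and both lists had 0 calls. miR-486a-3p has no alternatives, since it was never detected. Signal over background limits miR-486a-5p on 3 arrays, where its level is a bound.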
